A study of Gallus gallus with 12 samples.

Results

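The regions described here were open in the optic fissure margin (OFM) of the chicken embryo eye at Hamburger-Hamilton (HH) stages 30 and 34, and had no called peak in dorsal retina at either stage. They were found by merging the peaks of 4 lists wherever peaks shared at least 1 bp, and keeping regions on chromosomes 1 to 28 with a peak in both OFM lists and in neither dorsal list. There were 2579 such regions among 119805 merged regions on these chromosomes, and among 127749 in the whole genome. They are called fissure-margin regions below. Regions with a peak in both dorsal lists and no OFM list (1521) are called dorsal regions, and regions with a peak in all 4 lists (72877) are called shared regions.

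The study measured open chromatin by omni-ATAC-seq, in which the transposase Tn5 inserts sequencing adapters where DNA of intact nuclei is accessible. The groups were OFM at HH30, dorsal retina at HH30, OFM at HH34 and dorsal retina at HH34, with 3 libraries each and 12 in all. Every library came from wildtype Hy-Line embryos, pooled the tissue of 10 embryos and used 50000 counted cells. Fissure and dorsal tissue were dissected by hand from each eye, and the labels give at least 189 M reads per library, sequenced as pairs of 75 bp. Peaks were called once per group from its libraries together, so that each group has 1 list and no value per library. No replicate spread stands behind any value below, no test between groups was run, and the text gives no p-value of its own. Whether a dorsal peak is missing because fewer cells open a site or because each cell opens it less cannot be told apart in bulk tissue. Marker genes of fissure margin, dorsal retina and other eye tissues were not analysed here, so the labels were not checked against them.

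The optic fissure is a ventral cleft of the optic cup and stalk through which mesenchyme and blood vessels enter the eye. Its margins approach, fuse and become continuous during normal development, and failure of this fusion leaves a coloboma. The ventral eye is known for regulators such as PAX2, VAX1 and VAX2, and the dorsal eye for TBX5 and BMP4. Sites that open in one tissue and not in its neighbour are often distal enhancers, which can lie far from the genes they act on and can occur in groups around a single gene. None of this background is a result of these lists, in which no region is assigned to a gene.

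Among the 82055 regions with a peak in both OFM lists, 3.14% had no dorsal peak and so met the rule. The mirrored share was 1.90%, for 1521 of 79978 regions with a peak in both dorsal lists. Of all merged regions on chromosomes 1 to 28, fissure-margin regions made up 2.15% and dorsal regions 1.27%. The crossed combinations, which pair the OFM of one stage with the dorsal retina of the other, held 124 and 302 regions. A further 5323 regions were missing from dorsal retina at HH34 alone and 1276 at HH30 alone. With lists of equal length, there were 2258 fissure-margin and 1783 dorsal regions. Joining peaks at 50% reciprocal overlap gave 3259 and 2358. The part of list length and joining in the difference between the tissues was not tested. These values follow from the rule and are given as a description.

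Fissure-margin regions were narrow and weak within their lists. Their median width was 266 bp, with the middle 90% between 151 and 603 bp, and the widest spanned 1870 bp. Dorsal regions had a median width of 255 bp and shared regions one of 576 bp. Strength is given as the percentile of a peak's area score within its own list, where 100 is the strongest peak, because the authors' area scores have no recorded scale between lists. By this measure the median was 23.7 in the HH30 list and 13.9 in the HH34 list. For shared regions the medians in the same lists were 62.7 and 61.9. Dorsal regions were weak as well, with medians of 12.3 and 13.6 in the dorsal lists of HH30 and HH34. The highest percentile of any fissure-margin region was 84.4 at HH30 and 87.2 at HH34. An area covers the width of a peak, so this percentile and the width are not independent measures. The authors' −log10 q at the summit had a median of 4.92 at HH30 and 4.20 at HH34, against 10.4 and 9.93 in shared regions. In dorsal regions it was 4.01 and 4.11 in the dorsal lists.

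Many fissure-margin regions lay close to the authors' lower limit for a peak, an area score just above 200 in each list. At HH30, 286 regions (11.1%) had an area score at most 1.2 times that minimum, and at HH34 this held for 569 (22.1%). In shared regions the shares were 1.47% and 1.12%. In 741 regions (28.7%) the score was this close to the limit in at least 1 of the OFM lists. How far read depth or the limit itself set the missing dorsal peaks was not tested.

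The share of OFM regions without a dorsal peak was lower the stronger the peaks. Each region with peaks in both OFM lists was placed by the lower of its percentiles at the 2 stages. In the lowest bin of 10 percentiles, 1203 of 7662 regions (15.7%) had no dorsal peak. Between percentiles 20 and 30 the share was 4.35%, and between 50 and 60 it was 0.775%, or 64 of 8263 regions. Above percentile 70 there were 6 fissure-margin regions, 5 below percentile 80 and 1 below 90. In the top bin all 9141 regions had a dorsal peak at one stage or both. Dorsal regions followed the same course at a lower level up to percentile 80, with 11.9% in the lowest bin, 1.86% between 20 and 30, and 0.163% between 50 and 60.

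**Figure D1:**
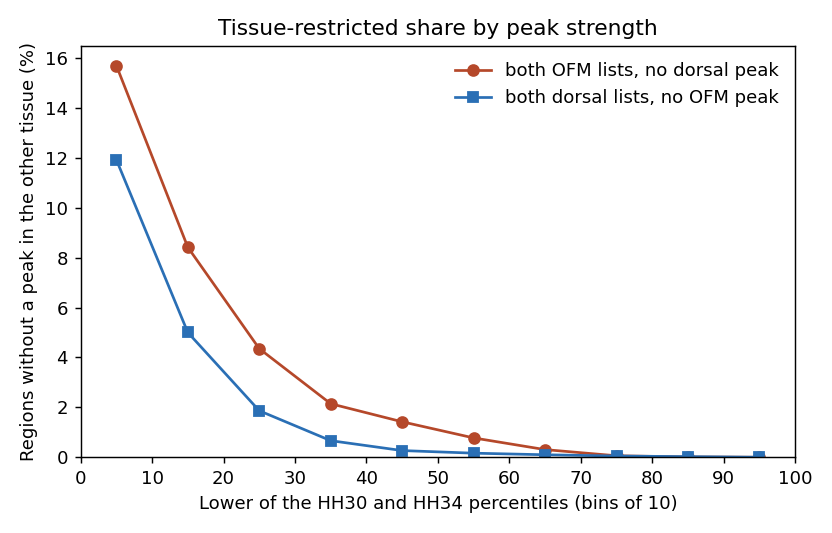
Share of regions with a peak in both lists of a tissue that had no peak in either list of the other tissue (y axis, percent), by the lower of the region's 2 within-list percentiles (x axis, bins of 10 plotted at their centres). Circles stand for OFM and squares for dorsal retina. The OFM share is 15.7% in the lowest bin and 0 in the highest, and it lies above the dorsal share up to percentile 80.

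The upper 50% of both OFM lists held 95 fissure-margin regions, and the upper 50% of both dorsal lists held 27 dorsal regions. These strong fissure-margin regions lay on 17 chromosomes. Their median width was 540 bp, which is not independent of the area score that chose them. Of them, 12 lay on chromosome 6, where 2 clusters described below held 5 and 2 of these. Chromosome 6 held 4945 of the 119805 merged regions and 5.74% of all fissure-margin regions. None of the 27 strong dorsal regions lay there. Another fissure-margin region of any strength lay within 50 kb of 55 of the 95 (57.9%), and 19 of the 27 strong dorsal regions (70.4%) had another dorsal region that near.

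Peak positions in the OFM agreed closely between the stages, which the rule itself favours. With no dorsal peak to link them, the OFM peaks of the 2 stages had to share at least 1 bp. In 2560 regions (99.3%) there was exactly 1 peak in each OFM list. The summits of the HH30 and HH34 peaks lay a median of 5 bp apart, and 2321 regions (90.0%) had them within 50 bp. The peaks of both stages overlapped over a median of 88.1% of their joint span. Shared regions had a median summit distance of 2 bp and a median overlap of 91.9% in the same OFM lists. The places of fissure-margin regions in the list were less alike between stages than those of shared regions. Across the 2579 regions, Pearson's r of the percentiles at HH30 and HH34 was 0.55 and Spearman's rho was 0.45, against 0.88 and 0.91 across shared regions in the same lists. Dorsal regions had an r of 0.52 and a rho of 0.35 in the dorsal lists. These are correlations across regions of the same pooled lists, and regions are not independent replicates. Fissure-margin percentiles also spanned a narrower range, with quartiles of 11.4 and 38.9 at HH30 and of 6.22 and 26.1 at HH34. In shared regions the quartiles were 40.6 and 81.9, and 40.5 and 81.3. A narrower range can lower a correlation by itself, and its part in the gap was not tested.

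Between HH30 and HH34 most fissure-margin regions moved down in the OFM list. The percentile was higher at HH34 in 781 regions (30.3%, 95% Wilson interval 28.5% to 32.1%, for counting error alone), and the median difference was −7.12 points. Shared regions ranked higher at HH34 in 41.8% of cases in the OFM lists, with a median difference of −0.61 points. Dorsal regions ranked higher at HH34 within the dorsal lists in 53.6% of cases, with a median difference of 0.81 points, against 36.6% of shared regions in those lists. A loss of more than 20 points was seen in 580 fissure-margin regions (22.5%), where 4.84% of shared regions lost as much. A gain of more than 20 points was seen in 94 (3.64%), where 6.36% of shared regions gained as much. A lower median at HH34 was not particular to fissure-margin regions. In regions missing from dorsal retina at HH34 alone, the median OFM percentile was 35.9 at HH30 and 14.7 at HH34. In regions missing from it at HH30 alone, the order was reversed, with 13.3 and 28.9. The OFM list of HH30 was the longer of the pair, with 108689 peaks against 105103, and held 7908 regions found in no other list, against 2094 for OFM at HH34. The part of this surplus in the lower ranks at HH34 was not tested.

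**Figure D2:**
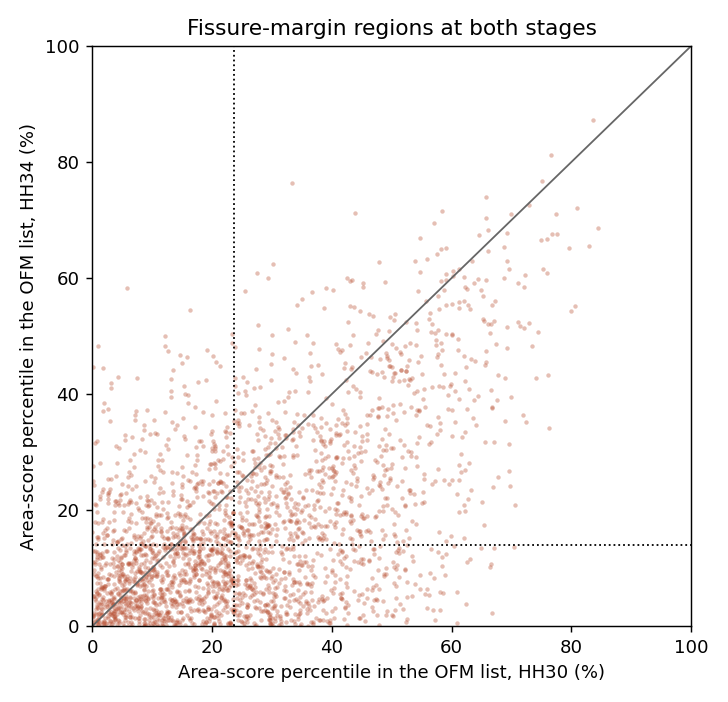
Each point is 1 of the 2579 fissure-margin regions, placed by its area-score percentile in the OFM list of HH30 (x axis, percent) and of HH34 (y axis, percent). The solid line marks equal percentiles and the dotted lines mark the medians of 23.7 and 13.9. Most points lie below the solid line and in the lower left.

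The largest loss was that of a 797 bp region on chromosome 3, positions 85538493 to 85539289. It stood at percentile 66.7 in the HH30 list and at 2.35 in the HH34 list, with summits 6 bp apart. A region on chromosome 1 (107459539 to 107460015) went from percentile 61.0 to 0.603. A dorsal peak lay 829 bp from it at HH30, and at HH34 the closest was 12173 bp off. Chromosome 10 (12275457 to 12276037) followed, with 62.4 and 3.90. The remaining regions of the 5 largest losses lay on chromosome 3 (75633954 to 75634656), from 70.5 to 13.7, and on chromosome 4 (54039113 to 54039705), from 66.5 to 10.2. Each of these 5 was among the stronger fissure-margin regions at HH30 and weak at HH34, which follows from choosing the largest losses.

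The largest gain was on chromosome 2, positions 6917175 to 6917559, from percentile 5.80 at HH30 to 58.3 at HH34. The closest dorsal peak lay at 18232 bp in the HH30 list and at 1931 bp in the HH34 list. On chromosome 1 a region at 179239666 to 179240115 went from percentile 1.03 to 48.4. It lay 369 bp from a fissure-margin region at 179238667 to 179239296, whose percentile went the other way, from 75.9 to 66.7. A region on chromosome 2 (124057926 to 124058242) went from 0.150 to 44.7. The region at 21958577 to 21959301 of chromosome 1 reached the highest place of these, with 33.4 at HH30 and 76.4 at HH34, although its summits lay 336 bp apart. The fifth, on chromosome 5 (7985623 to 7986296), went from 1.75 to 44.5 with summits 393 bp apart. In the latter pair the stages thus differ in summit position as well as in strength.

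Most fissure-margin regions lay near chromatin that was open in dorsal retina, and this was not particular to them. A shared region, which has a dorsal peak at both stages, lay within 20 kb of 89.2% of fissure-margin regions. The same held for 93.6% of dorsal regions, and 94.6% of shared regions had another that near. The share within 5 kb over all merged regions is not given here. The nearest dorsal peak of either stage was a median of 2088 bp away, and 1845 regions (71.5%) had one within 5 kb. It lay within 1 kb of 872 regions (33.8%) and within 500 bp of 555 (21.5%). Dorsal regions lay closer to OFM peaks, with a median of 1431 bp and 80.1% within 5 kb. They also lay closer to shared regions, at a median of 1858 bp against 3082 bp for fissure-margin regions. The 872 regions within 1 kb of a dorsal peak had a median percentile of 18.5 at HH30. The 141 regions more than 20 kb from any dorsal peak had one of 33.6. At HH34 these medians were 12.4 and 16.0. Of the 872, 20 (2.29%) were in the upper 50% of both OFM lists, against 6 of the 141 (4.26%).

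At the edge of the rule, the smallest gap to a dorsal peak was 90 bp, for a region on chromosome 7 (22633210 to 22633429) at percentiles 3.64 and 1.77. The next smallest gap was 91 bp, on chromosome 4 (1940752 to 1940907). In all, 226 fissure-margin regions lay within 200 bp of a dorsal peak. Outside the rule were 79476 regions with peaks in both OFM lists and at least 1 dorsal list, and none rested on an overlap of under 50 bp. The best overlapping pair of an OFM and a dorsal peak was taken in each. By share of the narrower peak, the smallest overlap was 58.4%, at 167 bp. It was found on chromosome 1 (59430128 to 59430615), at percentiles 29.1 and 20.3 in the OFM lists. Overlaps of fewer bp were found elsewhere, such as 130 bp on chromosome 26 (320627 to 321233), at 64.4% of the narrower peak.

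The most isolated fissure-margin region lay on chromosome 1, positions 165012821 to 165013123, with the nearest dorsal peak 108160 bp away. It was 303 bp wide and stood at percentile 57.7 at HH30 and 12.8 at HH34, with the same summit position in both lists. Another on chromosome 1 (150961462 to 150961962) lay 85143 bp from a dorsal peak and went from 65.1 to 21.4. The next were chromosome 1 (42732011 to 42732240), at 74004 bp, chromosome 3 (90068644 to 90068927), at 68994 bp, and chromosome 1 (191907309 to 191907563), at 66773 bp. The last of these had the higher percentile at HH34, 27.3 against 20.5, while the other 4 had it at HH30. None of the 5 had another fissure-margin region within 50 kb.

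Fissure-margin regions lay more often on the large chromosomes than shared and dorsal regions did. Chromosomes 1 to 5 held 1551 of them (60.1%), against 50.3% of shared regions and 43.6% of dorsal regions. The Wilson interval of 58.2% to 62.0% is for counting error alone and treats neighbouring regions as independent. The share was 62.6% for regions missing from dorsal retina at HH34 alone and 63.3% for regions found in OFM at HH30 alone. The matching kinds of the other stage were nearer to shared regions. These were 51.5% for regions missing from dorsal retina at HH30 alone and 52.4% for regions found in OFM at HH34 alone. Chromosomes 6 to 10 held 18.0%, close to the 18.2% of shared regions, and dorsal regions had 21.6% there. The small chromosomes 11 to 28 held 21.9% of fissure-margin regions, 31.5% of shared regions and 34.8% of dorsal regions. Their surroundings were also less densely open. A median of 28 merged regions lay within 100 kb on either side, against 34 for shared and 36 for dorsal regions.

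Counted per 100 shared regions, there were 3.54 fissure-margin and 2.09 dorsal regions. The highest value was on chromosome 6, with 148 fissure-margin regions or 4.97 per 100, followed by 4.59 on chromosome 4 and 4.56 on chromosome 2. Without the 20 regions of its 2 large clusters, chromosome 6 had 4.30 per 100. The lowest values were 0 of 132 on chromosome 16, 0.922 per 100 on chromosome 23 and 0.986 on chromosome 25. Each of chromosomes 1 to 13 held more fissure-margin than dorsal regions. Of all 28, 19 did so, 8 held fewer and chromosome 14 held 36 of each. Some margins were small, such as 93 against 87 on chromosome 7 and 72 against 67 on chromosome 10. This tally is not given for lists of equal length. Chromosome 15 had the reverse order, with 30 fissure-margin and 59 dorsal regions, 22 of the latter in a single cluster.

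**Figure D3:**
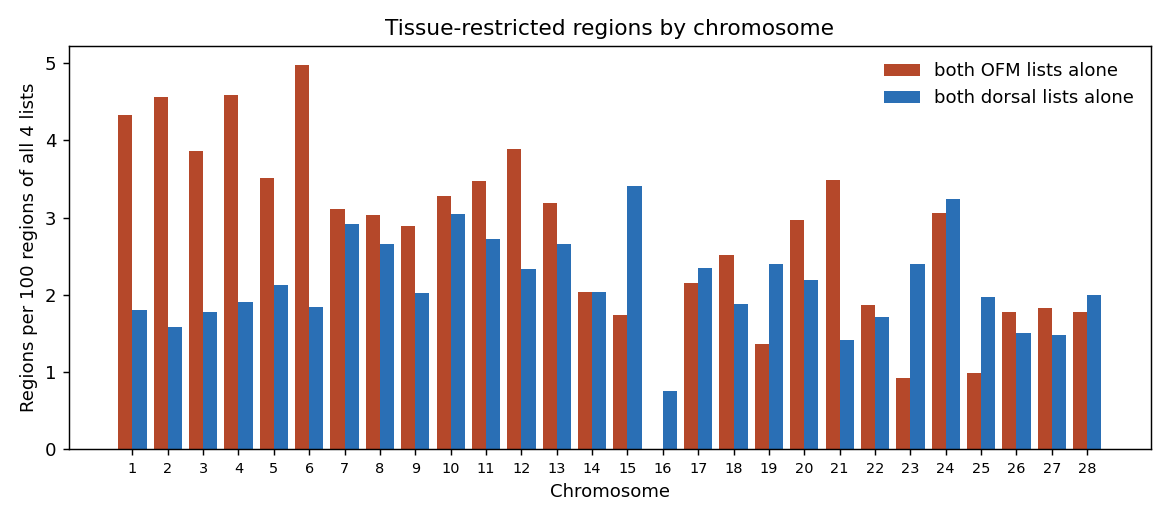
Number of fissure-margin regions (left bar of each pair) and dorsal regions (right bar) per 100 shared regions, by chromosome. Fissure-margin regions exceed dorsal regions on each of chromosomes 1 to 13, most on chromosome 6 (4.97 against 1.85), and fall below them on chromosome 15 (1.73 against 3.41).

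Shared regions beside fissure-margin regions leaned to the OFM. Over all shared regions, the percentile in OFM exceeded that in dorsal retina in 50.2% of cases at HH30 and in 59.2% at HH34, and these shares are the background. Among the 2918 shared regions within 5 kb of a fissure-margin region, 64.5% ranked higher in OFM at HH30 and 72.8% at HH34. At 5 to 20 kb the shares were 53.4% and 63.6%, and at 20 to 50 kb they were 51.7% and 61.0%. Beyond 50 kb they lay within 2 points of the background in each distance bin up to 500 kb. The median difference in percentile within 5 kb was small, 1.17 points at HH30 and 2.30 points at HH34. It was 0.01 and 0.58 points over all shared regions. Shared regions next to dorsal regions leaned the other way, with 33.9% and 40.0% ranking higher in OFM within 5 kb. They were chosen from the same 4 lists by distance alone, and no test was run on them.

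**Figure D4:**
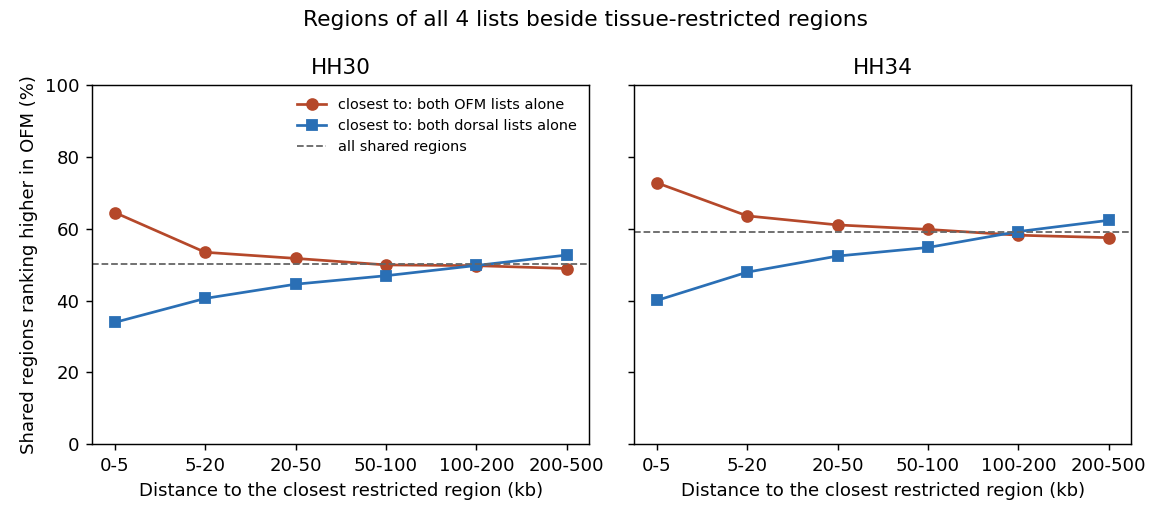
Percent of shared regions with a higher percentile in OFM than in dorsal retina (y axis) by distance to the closest tissue-restricted region in kb (x axis, unequal bins), at HH30 (left) and HH34 (right). Circles stand for distance to fissure-margin regions, squares for distance to dorsal regions, and the dashed line for all shared regions. Within 5 kb the circles lie at 64.5% and 72.8%, and the squares at 33.9% and 40.0%.

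This lean was larger where fissure-margin regions were grouped. Beside the 1625 regions with no other within 50 kb, 62.7% of shared regions within 5 kb ranked higher in OFM at HH30 and 69.8% at HH34. Beside the 406 regions in clusters of 3 or more, the shares were 70.5% and 81.2%. The grouped regions were also stronger, with median percentiles of 27.4 and 18.6 against 23.4 and 13.2.

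The kinds of region nearby differed in the same sense, though unevenly. Within 20 kb, 28.7% of fissure-margin regions had a region missing from dorsal retina at HH34 alone, against 23.7% of shared and 16.4% of dorsal regions. A region found in OFM at HH30 alone lay within 20 kb of 38.0%, against 30.5% and 23.9%. The gaps were smaller for the matching kinds of the other stage. For regions missing from dorsal retina at HH30 alone the shares were 9.54%, against 8.81% of shared and 8.94% of dorsal regions. For regions found in OFM at HH34 alone they were 14.3%, against 12.9% and 11.2%. A dorsal region lay within 20 kb of 6.05% of fissure-margin regions and of 9.83% of shared regions. Within 50 kb, 356 fissure-margin regions (13.8%) had a dorsal region.

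Another region of its kind lay within 50 kb of 954 fissure-margin regions (37.0%) and of 523 dorsal regions (34.4%), of which there are fewer in all. Linking regions at most 50 kb apart gave 384 clusters of 2 or more, 110 of 3 or more and 18 of 5 or more. The clusters of 5 or more held 112 fissure-margin regions (4.34%), and those of dorsal regions, 14 in number, held 119 (7.82%). The largest clusters of dorsal regions had 22 and 18 regions, while the largest of fissure-margin regions had 13.

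The largest cluster lay on chromosome 6, positions 29907774 to 29977488, with 13 fissure-margin regions over 69.7 kb. A second one of 7 regions lay 51567 bp further on (30029056 to 30049271), so that a linking distance slightly over 50 kb would join them into 20. The 13 regions ranged from percentile 4.55 to 83.5 at HH30 and from 8.26 to 87.2 at HH34, and 5 of them were in the upper 50% of both lists. The 7 regions of the second cluster ranged from 17.0 to 59.0 and from 23.9 to 59.4. The 3 shared regions of the second cluster all ranked higher in OFM at both stages, with a median difference of 41.7 points at HH30 and 49.7 at HH34. In the first cluster 5 of 6 shared regions did so at each stage, with medians of 2.02 and 3.80 points. The second cluster also held 2 regions missing from dorsal retina at HH34 alone and 1 missing from it at HH30 alone. Going the other way, it held 1 region found in dorsal retina at HH30 alone and 1 missing from OFM at HH30 alone.

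The second largest cluster, on chromosome 10 (17794268 to 17872770), held 9 fissure-margin regions and a single shared region. It also held 4 regions missing from dorsal retina at HH34 alone, which all have a dorsal peak at HH30. For the first 6 fissure-margin regions the closest dorsal peak of HH30 lay at 349 to 2850 bp, and that of HH34 at 13362 to 24559 bp. In 6 of the 9 the percentile was higher at HH34, unlike in most fissure-margin regions. Medians of the cluster were 24.6 at HH30 and 31.9 at HH34.

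A cluster on chromosome 4 (58421458 to 58488475) held 8 fissure-margin regions among 12 regions in all. Beside them were 2 shared regions, which ranked higher in OFM at both stages by a median of 19.2 and 14.6 points, and 2 regions found in OFM at HH30 alone. Its last fissure-margin region (58488173 to 58488475) was the strongest, at percentile 38.7 at HH30 and 54.9 at HH34. A pair in the middle, starting at 58463945 and 58467686, lay over 20 kb from any dorsal peak.

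Another on chromosome 4 (40347693 to 40454946) was the most mixed. Its 7 fissure-margin regions, all below percentile 39 at HH30, stood among 33 other regions. Of these, 16 were shared, 8 were found in OFM at HH30 alone and 6 were missing from dorsal retina at HH34 alone. All 16 shared regions ranked higher in OFM at HH34 and 14 did so at HH30, by medians of 18.9 and 6.88 points.

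The remaining clusters of 6 regions lay on chromosomes 1, 21 and 5. That on chromosome 1 (138049618 to 138162997) had 1 of 6 regions higher at HH34, and medians of 37.4 at HH30 and 10.3 at HH34. That on chromosome 21 (2310144 to 2400883) holds the region with the best place of all at HH30, described below. Its 8 shared regions showed no common lean, with 4 higher in OFM at HH30 and 2 at HH34. On chromosome 5 (28009654 to 28073954) the 4 shared regions ranked higher in OFM at both stages, by medians of 9.24 and 10.7 points. These 3 were taken beyond the 5 largest clusters after their values had been seen.

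**Figure D5:**
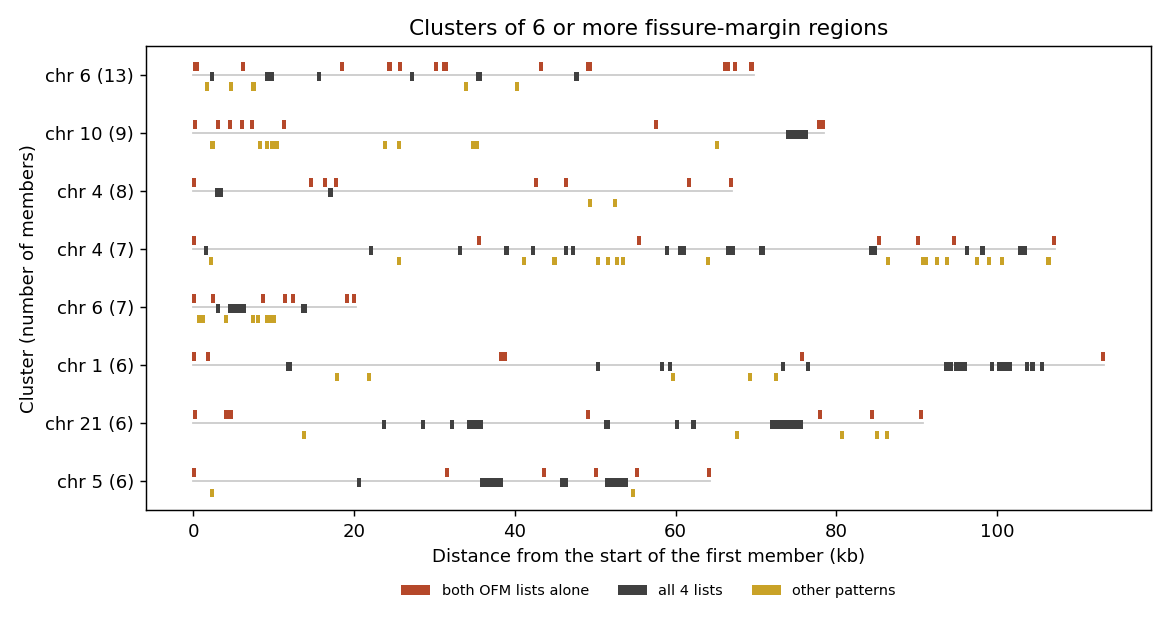
The 8 clusters with 6 or more fissure-margin regions, each drawn from the start of its first region (x axis, kb), with chromosome and number of fissure-margin regions at the left. Fissure-margin regions stand above the line, shared regions on it and regions of other patterns below it, each drawn at least 0.5 kb wide. The chromosome 4 cluster of 7 holds 16 shared regions and the chromosome 10 cluster holds 1.

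The strongest fissure-margin regions were ordered by the worse of their ranks in the OFM lists. The first 20 lay on 9 chromosomes, 5 of them on chromosome 6, with the worse rank between 17908 and 37256. They were 331 to 1180 bp wide. Their −log10 q ranged from 8.04 to 16.9 at HH30 and from 7.35 to 18.1 at HH34, as deposited by the authors. Their summits at the 2 stages were a median of 1.5 bp apart. In 7 of the 20 the percentile was higher at HH34. Another fissure-margin region lay within 50 kb of 14. A dorsal peak lay at 558 to 13363 bp from each, and at more than 5 kb from 8.

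The leading region, on chromosome 6 (29973694 to 29974598), belongs to the cluster of 13 and stood at percentile 83.5 at HH30 and 87.2 at HH34. Its summit was at position 29974219 in both lists. The third, 345 bp further on, had the highest −log10 q of the 20 at each stage, 16.9 and 18.1, at a width of 529 bp. The second, on chromosome 21 (5941325 to 5942441), stood alone, with the next fissure-margin region 106512 bp away, and went from percentile 76.6 to 81.1.

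Further down the order, differences between the stages went in both directions. A region of the chromosome 21 cluster (2313933 to 2315112) had the best rank of any fissure-margin region at HH30, 16905, and ranked 33049 at HH34, with the summit at the same base. On chromosome 4 a region at 47285460 to 47286272 went from percentile 82.9 to 65.5. A dorsal peak lay 759 bp from it at HH30 and 763 bp from it at HH34. Chromosome 1 (4922301 to 4923094) showed 79.5 and 65.2, with −log10 q of 16.6 and 12.2. These 3 had the largest differences of the 20. In the other direction, chromosome 6 (35676964 to 35677481) went from 65.8 to 74.0 and chromosome 1 (30203966 to 30204704) from 65.7 to 70.4. Their summits moved by 131 and 182 bp.

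Several of the 20 differed little between the stages. On chromosome 11 (17777368 to 17778076) the percentiles were 72.9 and 72.6, although the summits lay 290 bp apart. On chromosome 6 (35378764 to 35379303) they were 66.1 and 64.6, and on chromosome 7 (31679872 to 31680430) they were 69.2 and 67.8. The chromosome 7 region had a dorsal peak 1451 bp away at HH30 and none within 12125 bp at HH34. Another on chromosome 7 (35859920 to 35860609) stood at 66.1 and 68.3, and chromosome 2 (117748160 to 117749060) at 69.8 and 71.1. The narrowest, 331 bp on chromosome 24 (4356605 to 4356935), stood at 68.7 and 65.3, with one summit position for both stages and 169926 bp to the next fissure-margin region.

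The rest of the 20 stood lower at HH34, with differences from −10.1 to −6.47 points. Farthest from a dorsal peak among the 20, at 13363 bp, was a 1134 bp region on chromosome 2 (112547956 to 112549089), with percentiles of 77.6 and 67.5. A region on chromosome 1 (27114178 to 27114708) was next at 12788 bp. It stood at 76.7 and 67.6 and had another fissure-margin region 158 bp away. On chromosome 9 (19315391 to 19316409) the percentiles were 77.5 and 71.0, and on chromosome 2 (31411245 to 31412057) they were 80.9 and 72.1. The first region of the chromosome 6 cluster (29907774 to 29908414) went from 75.0 to 66.5.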

How the data were processed

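Omni-ATAC-seq peak lists of 4 groups were analysed, 1 list per group. Per the labels, Genrich was run by the authors on the 3 libraries of a group together. The submitters' processing notes list Trim Galore, cutadapt 1.16, FastQC, Bowtie2 2.3.4.3, SAMtools 1.6, Genrich 0.6 and deepTools 3.5.0, and the builds galGal6 and GRCg6a. Their settings, the handling of Tn5 cut sites and the depth of each library are not given in the sources used here. All of these change which peaks are called and how wide they are. Coordinates are those of the deposited lists, counted from 1, and they are taken to be in GRCg6a (galGal6), an inference, since the notes name these builds without saying what each was used for and no genome was used to check it.

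The deposited lists have no header and 10 columns in narrowPeak order. The area signal (minimum just above 200), the capped score of at most 1000, the −log10 q of the summit and the summit position are the authors' values as deposited. The capped score was not used. Area signals, called area scores in the text, served to rank peaks within a list.

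Peaks were merged and compared with Python 3.11.15, pandas 2.3.3 and scipy 1.17.1, after testing on simulated data. A region took the strongest peak of each list. The members and lists were chosen with earlier results of these data known. Named regions were the 20 best by worse rank, the 5 largest clusters, the 5 farthest from a dorsal peak and the 5 largest gains and losses. Alternatives changed how peaks are joined, the distance to dorsal peaks, the length of the lists and the lower limit on strength. Wilson intervals at 95% cover counting error alone and treat regions as independent. No genome or annotation of this build was used here, and the GRCg7b gene table was not used because the lists reach past its last gene on 25 of 34 chromosomes. Gene names, motifs and sequences were therefore not analysed here.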

Additional observations from a re-analysis of the deposited data

Results flagged for a closer look

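Chromosome Z was left out by the rule. There, 256 regions had a peak in both OFM lists and in neither dorsal list, against 20 with the reverse, or 7.54 and 0.589 per 100 Z regions found in all 4 lists. It is listed because it is a signal in data outside the comparisons above, higher than in the dorsal lists. Chromosome W, also outside the rule, went the other way, with 0 such regions against 7 with the reverse. Per 100 W regions found in all 4 lists, of which there were 76, these were 0 and 9.21. The cause of either difference was not tested.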

How the results depend on the processing

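Keeping regions in the upper 50% of both OFM lists, with no dorsal peak of any rank, left 95 regions of median width 540 bp, at median percentiles of 64.6 (HH30) and 59.1 (HH34). Of these 56.8% lay on chromosomes 1 to 5, 28.4% ranked higher at HH34, 63.2% had a dorsal peak within 5 kb and 11.6% had another of the 95 within 50 kb. Shared regions within 5 kb of them ranked higher in OFM in 78.9% (HH30) and 80.3% (HH34) of cases. Asking for no dorsal peak within 1000 bp left 1707 regions, with 65.0% on chromosomes 1 to 5, percentiles of 26.8 and 15.1, 27.9% higher at HH34, 57.0% within 5 kb of a dorsal peak, 28.5% with a neighbour and a lean of 69.8% at HH34. Joining peaks at 50% reciprocal overlap gave a median width of 283 bp, percentiles of 26.9 and 19.1, 56.7% on chromosomes 1 to 5, 34.6% higher at HH34, 79.2% within 5 kb and 44.1% with a neighbour. The lean was then 56.4% and 64.5%, nearer to that setting's background of 50.2% and 59.7%. Lists of equal length gave a width of 288.5 bp, 68.9% within 5 kb and 34.0% with a neighbour. The lean was then 59.7% and 64.8%, against a background of 43.9% and 50.03%. The upper 50% of each list, dorsal lists included, gave 1328 regions, which can have a dorsal peak in the lower 50%. A neighbour within 20 or 100 kb was found for 21.7% or 52.3%, and a dorsal peak within 2 kb for 49.0%. Of 45 values, 9 stayed within their limits, set at 1.5 times for counts and at the 95% interval of the main value otherwise. In the settings run on them, 27.9% to 34.6% of regions ranked higher at HH34, and 56.7% to 65.0% lay on chromosomes 1 to 5. Shared regions of the main setting had 41.8% and 50.3%, and no such background is given for the other settings. For the 95 strong regions, the 95% interval of the share on chromosomes 1 to 5 was 46.8% to 66.3%. The lean stayed above its background at both stages in each of the 4 settings run on it, which were added for it after seeing the data. No paired analysis was possible because each group has a single joint list with no value per replicate, and leaving out replicates was not run for the same reason. Transcription starts, motifs, GC content and gene lists were planned and not run.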

Other observations

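Regions with peaks in both OFM lists and in a single dorsal list stand next to the fissure-margin regions. In the 5323 regions missing from dorsal retina at HH34 alone, the median percentile was 35.9 in OFM at HH30, 14.7 in OFM at HH34 and 21.1 in dorsal retina at HH30. The dorsal percentile was the lower of the HH30 pair in 84.1% of them, and in 1100 (20.7%) the dorsal peak stood below percentile 10. In the 1276 regions missing from dorsal retina at HH30 alone, the medians were 13.3 in OFM at HH30, 28.9 in OFM at HH34 and 16.5 in dorsal retina at HH34. There the dorsal percentile was the lower of the HH34 pair in 75.2%, and 420 (32.9%) had a dorsal peak below percentile 10. Chromosomes 1 to 5 held 62.6% of the former and 51.5% of the latter. In the upper 50% of both OFM lists were 180 of the former and 41 of the latter, against 95 fissure-margin regions.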
